A study of Sus scrofa with 5 samples.

Results

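CD3-negative cytotoxic lymphocytes of the pig cecum were taken as a gate on single-cell counts, and 646 of 72701 cells passed it. The members were chosen by measured values: at least 200 detected genes, no UMI of CD3E or CD3G, at least 4 UMIs of GNLY, NCR1, PRF1 and GZMB together with at least 2 of these genes detected, at most 1 UMI of IL17A, IL17F and IL22 together, and no UMI of EPCAM or MS4A1. A UMI (unique molecular identifier) marks 1 captured RNA molecule. The gate held 35 cells at d0, 25 at d1, 137 at d7, 324 at d14 and 125 at d21. The levels of these 11 gate genes are therefore a description and were not tested.

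The study followed the cecal mucosa of the newborn pig with 1 droplet library at each of d0, d1, d7, d14 and d21. Each library pooled cells of 5 male piglets, born to Large White sows. The piglets were unweaned. Cells were freed from scraped mucosa with EDTA and trypsin. The pigs of 1 age cannot be separated in the files, so age and library cannot be told apart and no p-value between ages is given. Across the 5 ages the libraries held 15218, 14142, 10272, 16177 and 16892 cells with at least 200 genes, which carried 83394038, 80196009, 47921183, 91863866 and 69522315 UMIs. Any 2 libraries shared between 37 and 79 barcodes.

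Natural killer (NK) cells and group 1 innate lymphoid cells (ILC1) are lymphocytes without a rearranged antigen receptor. They lyse target cells with perforin and granzymes, or secrete interferon gamma, under the transcription factors T-bet (TBX21) and, mainly in NK cells, EOMES. NK receptors signal through small membrane adaptors such as TYROBP, FCER1G and HCST, whereas T cells need the CD3 chains. In the gut both kinds of lymphocyte sit in the epithelium and the lamina propria, next to type 17 innate lymphoid cells, which secrete interleukins 17 and 22.

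The name of these cells was checked against markers, and d0 stood apart. At least 1 UMI of TBX21, KLRB1, KLRD1 or EOMES was found in 6 of 35 members at d0 (17.1%, exact 95% interval 6.56 to 33.6), 14 of 25 at d1 (56%), 91 of 137 at d7 (66.4%), 253 of 324 at d14 (78.1%, 73.2 to 82.5) and 76 of 125 at d21 (60.8%). All 4 of these genes also had UMIs in CD3-positive cytotoxic cells, described below, so these shares alone do not set the members apart from T cells. EOMES and KLRD1 had no UMI in members at d0, where 0 of 35 cells allows a share of cells with a UMI of up to 8.57%. This limit, used for every count of 0 below, is 3 counts of the total. NCR1 (NKp46), an activating receptor of NK cells and some innate lymphoid cells, is a gate gene, and as a description it had a UMI in 1 member at d0, 7 at d1, 36 at d7, 149 at d14 and 24 at d21. Of the 35 members at d0, 28 held only GNLY and GZMB of the 4 cytotoxic genes, and the median member had 1506 UMIs. With TBX21, KLRB1, KLRD1 and EOMES this rare, the d0 cells are described below as CD3-negative cells with GNLY and GZMB, and the NK markers bear on d7, d14 and d21. Mitochondrially encoded genes made up 16.1% of the members' UMIs at d0 and 6.50%, 6.60%, 5.11% and 8.85% at the later ages.

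T cell genes other than the gated CD3 chains were scarce but present. At least 1 UMI of CD3D, CD5, CD6, CD28, BCL11B or LEF1 was found in 2, 1, 11, 35 and 18 members from d0 to d21, which is 5.71%, 4%, 8.03%, 10.8% and 14.4%. CD5, a T cell surface glycoprotein, had 3, 14 and 6 UMIs in all members at d7, d14 and d21, or 0.0835, 0.102 and 0.160 per 10000 UMIs. In the CD3-positive cytotoxic cells described below it had 82, 634 and 366 UMIs, or 0.411, 0.934 and 0.504 per 10000. Neither group had a UMI of CD5 at d0 or d1. Of 28 listed T cell genes, 21 were in the count matrices, and the genes checked here held no constant chain of the T cell receptor. At d14, cells that met the rule but for 1 CD3 UMI held 3 UMIs of CD3D, 9 of CD5 and 10 of CD6 over 506989 UMIs. Members held 5, 14 and 8 over 1371984. In a single cell, absence of these genes therefore does not exclude a T cell.

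GNLY (granulysin, chromosome 3, 59067327 to 59072034 of Sscrofa11.1) was the leading gene of the gate. Its level, given here as UMIs per 10000 UMIs of all cells in a gate, was 145 at d0, 177 at d1, 140 at d7, 135 at d14 and 164 at d21. GZMB (granzyme B, chromosome 7, 74705499 to 74708781), a serine protease of the lytic granule, stood at 32.5, 7.58, 10.3, 5.10 and 11. PRF1 (perforin, chromosome 14, 73515306 to 73520256) was much lower, at 1.04, 0.989, 2.70, 1.99 and 1.58, and NCR1 (chromosome 6, 59092258 to 59099992) at 0.174, 1.43, 1.84, 2.59 and 1.15. GZMB lies near GZMH (chromosome 7, 74723800 to 74727396) and reads may be split between related granzymes, so their separate levels are uncertain. Without members that held UMIs of other lineages (described below), the level of GNLY was 150, 260, 183, 181 and 188, so its order among the ages depended on those cells.

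Cells that should lack these genes seldom met the cytotoxic rule. Cells of an epithelial gate (at least 2 UMIs of EPCAM, none of PTPRC) served as this background. Among them, 4 or more UMIs of at least 2 cytotoxic genes were found in 7 of 7620 cells at d0, 6 of 4759 at d1, 0 of 306 at d7 (which allows up to 0.980%), 1 of 163 at d14 and 0 of 651 at d21 (up to 0.461%). A single UMI was common in the older libraries: a UMI of GNLY was seen in 17.6% of epithelial-gated cells at d7 and 17.2% at d21, against 91.2% and 90.4% of the members. The median depth was 16863 and 4720 UMIs in those epithelial cells and 1891 and 2138 UMIs in the members. TBX21 had a UMI in 1.96%, 1.84% and 0.922% of epithelial-gated cells at d7, d14 and d21, against 43.8%, 40.4% and 38.4% of members.

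The members were most frequent at d14. They made up 0.230% of cells at d0 (exact 95% interval 0.160 to 0.320), 0.177% at d1 (0.114 to 0.261), 1.33% at d7 (1.12 to 1.57), 2.00% at d14 (1.79 to 2.23) and 0.740% at d21 (0.616 to 0.881). The intervals cover counting error only, and those of d7, d14 and d21 did not overlap one another. With every cell thinned to 1000 UMIs before the gates, those of d7 (1.45 to 2.03) and d14 (1.72 to 2.18) overlapped. In cells of at least 2000 UMIs, those of d7 (0.854 to 1.42) and d21 (0.533 to 0.869) did. The share at d0 was 0.488% in cells under 20% mitochondrial counts and 0.104% in cells of at least 2000 UMIs. Without members that held UMIs of other lineages, the share was 0.0919% at d1 and 0.827% at d7. Beside the members, cytotoxic cells that met the same rule but carried at least 2 UMIs of CD3E and CD3G numbered 59, 21, 298, 967 and 971. The CD3-negative share of these cytotoxic cells was 37.2% at d0 (27.5 to 47.8), 54.3% at d1 (39.0 to 69.1), 31.5% at d7 (27.2 to 36.1), 25.1% at d14 (22.8 to 27.6) and 11.4% at d21 (9.58 to 13.4). It was lower at d21 than at each other age beyond counting error.

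This share moved strongly with depth per cell. At d21 it was 76.9% of cytotoxic cells with 500 to under 1000 UMIs and 3.14% of those with 5000 or more. At d7 the same classes gave 91.7% and 8.20%, and at d14 81.6% and 14.6%. The median member had 1506, 2568, 1891, 3144 and 2138 UMIs across the ages, against 2066, 2771, 5560.5, 5125 and 6223 in the CD3-positive cells. When CD3-positive cells were thinned to 1000 UMIs and still passed the cytotoxic rule, 12%, 31.3%, 35.8%, 20.2% and 21.6% of them had no CD3 UMI left, and at 2000 UMIs 0 of 28 (which allows up to 10.7%), 13.3%, 14.7%, 7.14% and 5.82%. Shallow members therefore cannot be told apart from T cells whose CD3 was not sampled. Among cells with at least 2000 UMIs, 10, 17, 63, 232 and 68 members remained, and the CD3-negative share was 24.4%, 51.5%, 18.2%, 20.8% and 6.85%. At this depth d14 was no longer below d7.

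**Figure D1:**
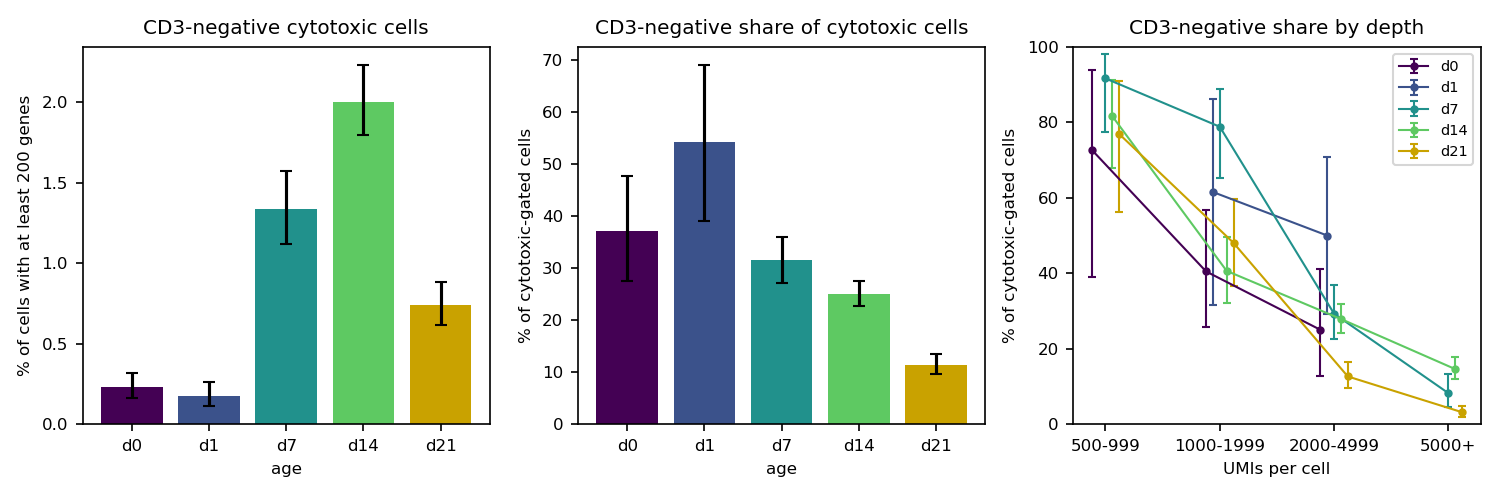
Percent of cells in the CD3-negative cytotoxic gate (left), their percent of all cytotoxic-gated cells (middle) and the same percent in classes of UMIs per cell with at least 10 cytotoxic cells (right), by age, with exact 95% intervals. The share of cells peaked at 2.00% at d14, and at each age the CD3-negative percent was lower in the deepest plotted class than in the shallowest.

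Just inside the limit of the gate, members with 4 or 5 cytotoxic UMIs numbered 2, 3, 26, 46 and 30 from d0 to d21. Just outside it, 2, 8, 52, 132 and 189 cells had 2 or 3 such UMIs of at least 2 genes. At d14 the cells inside carried 122 UMIs of KLRB1 and 28 of EOMES over 201721 UMIs, and those outside 265 and 28 over 590127. At d1 KLRB1 had the opposite order, with 7 UMIs inside over 14676 and 22 outside over 21844. Cells with a single CD3 UMI, left out of both cytotoxic groups, numbered 19, 18, 78, 145 and 89. At d14 they carried 116 UMIs of TBX21, 197 of KLRB1, 51 of KLRD1 and 46 of EOMES over 506989 UMIs. The members carried 215, 1265, 234 and 201 over 1371984. Per UMI, TBX21 was thus higher in the cells with 1 CD3 UMI, and KLRB1, KLRD1 and EOMES were higher in members. TBX21 had the same order at d1 (7 over 46715 against 4 over 90978) and the opposite order at d0, d7 and d21.

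Genes of other lineages were seen in many members, and no doublet caller was run. At least 2 UMIs of 17 such genes (for epithelium, myeloid, B, stromal, mast and red cells) were found in 9 of 35 members at d0, 12 of 25 at d1, 52 of 137 at d7, 101 of 324 at d14 and 35 of 125 at d21. The 16 myeloid markers summed to 0.348, 19.6, 10.9, 23.6 and 5.62 UMIs per 10000 from d0 to d21, with CST3 most abundant at d14, and only MARCO at 0 at d7. The 16 stromal and endothelial markers summed to 1.74, 22.8, 2.06, 15.3 and 5.14, with COL3A1 most abundant at d14 and LYVE1 at 0 there. HBB, a hemoglobin chain, made up 1166 UMIs in members at d7, of which 1082 lay in 1 cell. Such cells are kept below.

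The first question was how the members differ from T cells with the same killing genes. For 5 libraries, UMIs were summed per library over the members and over the CD3-positive cytotoxic cells, and edgeR's quasi-likelihood test was run with the library as a block and Benjamini-Hochberg adjustment over 4514 genes. The tested genes were not used by the gates but come from the same cells. At an adjusted p under 0.05, 327 genes were higher in the members (7.24% of those tested) and 194 were lower (4.3%). Genes of NK signalling, EOMES and TBX21 were among the higher, and GZMA, CD8A, CD247, ITGAE and cell cycle genes among the lower.

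Among NK receptors and adaptors, 7 of 17 tested genes were higher and 1 was lower, with a median log2 fold change of 0.56 against 0.01 over all genes. TYROBP (DAP12), the adaptor of activating NK receptors, stood at 5.91, 5.50, 7.96, 8.70 and 5.51 UMIs per 10000 in the members from d0 to d21 and at 4.65, 4.63, 3.89, 3.15 and 1.07 in the CD3-positive cells. It was higher in 5 of 5 libraries (log2 fold change 1.30 ± 0.29 SE, adjusted p = 0.0320 by edgeR). At d1, however, 26 of its 50 UMIs lay in 1 member, and its level was 2.96 without that cell and 2.80 without members that held UMIs of other lineages, below the 4.63 of all CD3-positive cells. TYROBP is also a gene of myeloid cells, whose markers differed in level between the gates in both directions. They summed to 0.481, 34.2, 2.01, 8.87 and 1.91 UMIs per 10000 in the CD3-positive cells from d0 to d21. These sums were below the members at d7, d14 and d21 and above them at d0 and d1. At d0 they rested on 6 UMIs in CD3-positive cells and 2 in members. Of the 16 myeloid markers 5 could be tested and none was called, with a median log2 fold change of 1.65 against 0.01 over all genes, and of 8 tested stromal and endothelial markers CALD1 and PLVAP were higher. Their part in the level of TYROBP was not tested. LYN, FGR, ITGB2 and ZEB2, described below and also expressed by myeloid cells, stayed called without members and CD3-positive cells that held other-lineage UMIs, with d1 then not kept. KLRG1, an inhibitory lectin receptor (chromosome 5, 62506001 to 62523969), had levels of 1.22, 1.10, 1.17, 0.503 and 0.401 against 0.401, 0.299, 0.748, 0.197 and 0.0937. It was higher in every library by 1.28 ± 0.22 (adjusted p = 0.000672 by edgeR). CD7, an immunoglobulin family receptor of T and NK cells, was higher by 1.21 ± 0.17, HCST (DAP10) by 0.56 ± 0.13 and LYN, a Src family kinase, by 1.12 ± 0.22. KLRD1 (CD94, chromosome 5, 61662083 to 61673109) was higher by 1.79 ± 0.36 in 4 of 5 libraries, with no UMI in members at d0 and 0.110, 0.946, 1.71 and 0.776 at the later ages.

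KLRB1 (CD161, chromosome 5, 62244787 to 62257691) had the largest log2 fold change of the tested genes of this list, 2.60 ± 0.55, but did not pass the test (adjusted p = 0.0592 by edgeR). Its level was 0.522, 2.31, 6.54, 9.22 and 4.2 in the members and 1.52, 0.896, 1.55, 1.12 and 0.375 in the CD3-positive cells. The d0 library had the opposite order to the 4 others. FCER1G (0.30 ± 0.36), KLRK1 (0.31 ± 0.15) and FCGR3A (0.57 ± 0.19) did not pass either. Lectin receptors of the KLR family have close relatives, and the split of reads between them is uncertain.

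Of the transcription factors of innate lymphocytes, 6 of 21 were higher and 1 was lower (median 0.36). EOMES (chromosome 13, 14209590 to 14216184) stood at 0, 0.550, 0.863, 1.47 and 0.508 in members and 0.0802, 0.149, 0.231, 0.465 and 0.171 in CD3-positive cells. It was higher in the 4 libraries from d1 on, with a log2 fold change of 1.71 ± 0.20 (adjusted p = 1.5e-05 by edgeR), and had no UMI in members at d0. At d1 EOMES had 5 UMIs in 4 members, and none in the 13 members without UMIs of other lineages. TBX21 (chromosome 12, 23996415 to 24009353) had 0.696, 0.440, 2.39, 1.57 and 2.06 against 0.401, 0.597, 1.52, 0.844 and 0.529, higher in 4 of 5 libraries by 1.11 ± 0.19. ZNF683 (Hobit), a repressor linked to residence in tissue, was higher by 1.24 ± 0.25, ZEB2, which accompanies terminal NK maturation, by 0.91 ± 0.20, and BHLHE40 by 1.05 ± 0.17. NFIL3, needed for NK development, was higher by 0.57 ± 0.16 and RUNX3 lower (-0.51 ± 0.15). ID2 (-0.13 ± 0.13), GATA3 and IKZF2 did not pass.

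The T cell list showed the reverse: 6 of 9 tested genes were lower and none was higher (median -0.68). CD8A, the CD8 coreceptor, stood at 0, 0.220, 1.06, 0.627 and 0.936 in the members and 0.160, 0.896, 1.91, 2.39 and 1.86 in the CD3-positive cells, lower in 5 of 5 libraries (log2 fold change -1.37 ± 0.18, adjusted p = 4.94e-05 by edgeR). CD247, the zeta chain shared by the T cell receptor and some NK receptors, was lower in every library (-1.15 ± 0.18), as was THEMIS (-0.95 ± 0.26). LAT, SIT1 and LCK were also lower. CD247 was detected in members of every library and CD8A in those from d1 on, and the part of unsampled T cells in this was not tested.

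Killing genes outside the gate did not move together. Of 14 tested effectors, 3 were higher (CTSW, TNFSF10, UNC13D) and 2 lower (GZMA, CST7), with a median of 0.07. GZMA (granzyme A) had levels of 2.26, 0.440, 0.362, 0.168 and 0.669 in members and 4.81, 1.19, 0.969, 1.63 and 2.97 in CD3-positive cells. It was lower in every library (-2.20 ± 0.26, adjusted p = 0.000129 by edgeR). The annotation holds neighbouring copies under this symbol on chromosome 16 (from 34262495 and from 34282160), so their split is uncertain. CTSW (cathepsin W), a protease of cytotoxic cells, stood at 15.8, 17.6, 16.3, 17.7 and 12.7 against 11.5, 14.3, 11.4, 7.14 and 4.08 (0.93 ± 0.18). NKG7, a granule membrane protein, gave 13.4, 8.35, 15.6, 14.2 and 12.1 against 18.5, 14.0, 14.2, 10.8 and 10.0, with a log2 fold change of 0.03 ± 0.13 (adjusted p = 0.935 by edgeR). The order of the groups turned between d1 and d7.

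Cytokine genes were few. XCL1, a chemokine for cross-presenting dendritic cells, had 2.43, 6.05, 6.37, 3.74 and 3.26 in members and 1.84, 5.23, 5.54, 2.09 and 2.11 in CD3-positive cells, higher in every library (0.53 ± 0.14, adjusted p = 0.0142 by edgeR). TNF passed narrowly (0.50 ± 0.16, adjusted p = 0.0471). IFNG, the signature cytokine of these cells, had only 6, 0, 5, 8 and 10 UMIs in members and was too low to be tested. Of 14 cytokine and chemokine receptors, IL2RB (0.62 ± 0.13), IL12RB2 (0.82 ± 0.20), IL18R1 (1.11 ± 0.20) and GPR183 (0.76 ± 0.16) were higher, and none was lower.

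Few residency and circulation genes differed from the CD3-positive cells. ITGAE (CD103), which binds E-cadherin on epithelium, stood at 0.869, 0.659, 0.390, 0.277 and 0.802 in members and 1.36, 0.896, 0.868, 1.12 and 1.76 in CD3-positive cells. It was lower in 5 of 5 libraries (-1.39 ± 0.20, adjusted p = 9.11e-05 by edgeR). ITGAM (CD11b) was higher by 2.00 ± 0.38 in 4 of 5 libraries, and ITGB2, its partner chain, by 0.94 ± 0.18 in every one. Of 13 tested residency genes only ZNF683 was higher and only ITGAE lower (median 0.09), and of 10 circulation genes ITGAM and ITGB2 were higher and none lower (median 0.73).

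Cell cycle genes were lower in the members. Of 14 tested, 9 were lower and none higher (median -0.82), among them TOP2A, a topoisomerase of dividing cells (0, 0.769, 1.00, 1.40 and 1.87 against 0.160, 1.05, 3.15, 3.47 and 3.05, -1.15 ± 0.16), UBE2C and BIRC5. With every cell thinned to 1000 UMIs before the gates, TOP2A was 0.47, TPX2 0.27 and RRM2 0.25 higher in the members on the log2 scale, none past the threshold. That thinning also re-formed the gates, with 51 CD3-positive cells at d7 in place of 298, and left out d1. In cells of at least 2000 UMIs, tested over d7, d14 and d21, TOP2A (-1.07), TPX2 (-1.06) and RRM2 (-1.12) were still lower and called. At least 1 UMI of MKI67 or TOP2A was present in 0, 4, 14, 57 and 29 members. Of 21 genes of the dissociation and stress response, 8 were higher, such as JUN (0.49 ± 0.11) and ZFP36 (0.68 ± 0.15), and none lower (median 0.36). Among other genes, GBP1, a guanylate-binding protein induced by interferon, was higher in every library (0.85 ± 0.12).

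Ranked by fold change among called genes with 1 sign in every library, the 10 largest rises included SATB1 (1.70 ± 0.16), LYST (1.68), NABP1 (1.66), AHNAK (1.57), FGR (1.43), OTUD1 (1.37), SPINT2 (1.36), BASP1 (1.34) and TYROBP. SATB1, a chromatin organizer of lymphocytes, had 0.522, 0.659, 1.42, 1.44 and 1.15 in members and 0.160, 0.448, 0.482, 0.421 and 0.345 in CD3-positive cells, so that its groups did not overlap (adjusted p = 2.15e-06 by edgeR). LYST acts in the traffic of lytic granules, FGR is a Src family kinase and SPINT2 inhibits serine proteases. The 10 largest falls were IGFBP2 (-3.12 ± 0.29), GZMA, ITGAE, CD8A, C1H15orf48 (-1.22), TOP2A, CD247, APOBEC3B (-1.10), TPX2 (-1.08) and RRM2 (-1.06). IGFBP2, which binds insulin-like growth factors, had 1.22, 0, 0.139, 0.0802 and 0.160 against 3.53, 1.94, 1.19, 1.2 and 0.812. Of the 14 of these 20 genes that could be tested with cells thinned to 1000 UMIs, only FGR, GZMA, CD8A and C1H15orf48 kept their call. AHNAK (0.77), SPINT2 (0.77), TYROBP (1.14), IGFBP2 (-0.39), ITGAE (-0.75), CD247 (-0.41) and APOBEC3B (-0.74) lost it, and TOP2A, TPX2 and RRM2 turned as above. In cells of at least 2000 UMIs, 19 of the 20 kept their call, all but TYROBP.

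The counts leaned on d14, which held the most members. Each fit with a library left out tested its own number of genes, against 4514 with all libraries. Without d14, 67 genes were higher and 22 lower of 3267 tested. Without d7 they were 114 and 54 of 3322, and without d21 124 and 59 of 3328. Without d0 they were 412 and 322 of 7256, and without d1 521 and 516 of 7195. Of the largest changes, TYROBP lost its call without d1 (1.39), d7 (1.37) or d14 (1.2), without other-lineage cells (1.66, d1 then not kept), in cells of at least 2000 UMIs (1.70) and against cells with 1 CD3 UMI or more (1.2), and APOBEC3B (-0.78) and RRM2 (-0.71) lost theirs without d14. Of 52 further called genes of the lists, 12 lost their call without d0, 5 without d1, 26 without d7, 38 without d14 and 18 without d21. TNF lost it under each of the 5. HCST (0.52), IL2RB (0.57), IL12RB2 (0.84), GPR183 (0.76), ZEB2 (0.91), ZNF683 (1.26), NFIL3 (0.70), RUNX3 (-0.47), LAT (-0.37), LCK (-0.41), SIT1 (-0.74), THEMIS (-0.42), XCL1 (0.41), TNFSF10 (0.53), UNC13D (0.77), CST7 (-0.38), UBE2C (-0.91) and ZFP36 (0.76) were among those not called without d14. KLRD1 was not called without d0 (1.75) or d1 (1.74), CTSW not without d1 (0.98) and ITGAM not without d1 (1.98) or d14 (1.99).

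**Figure D2:**
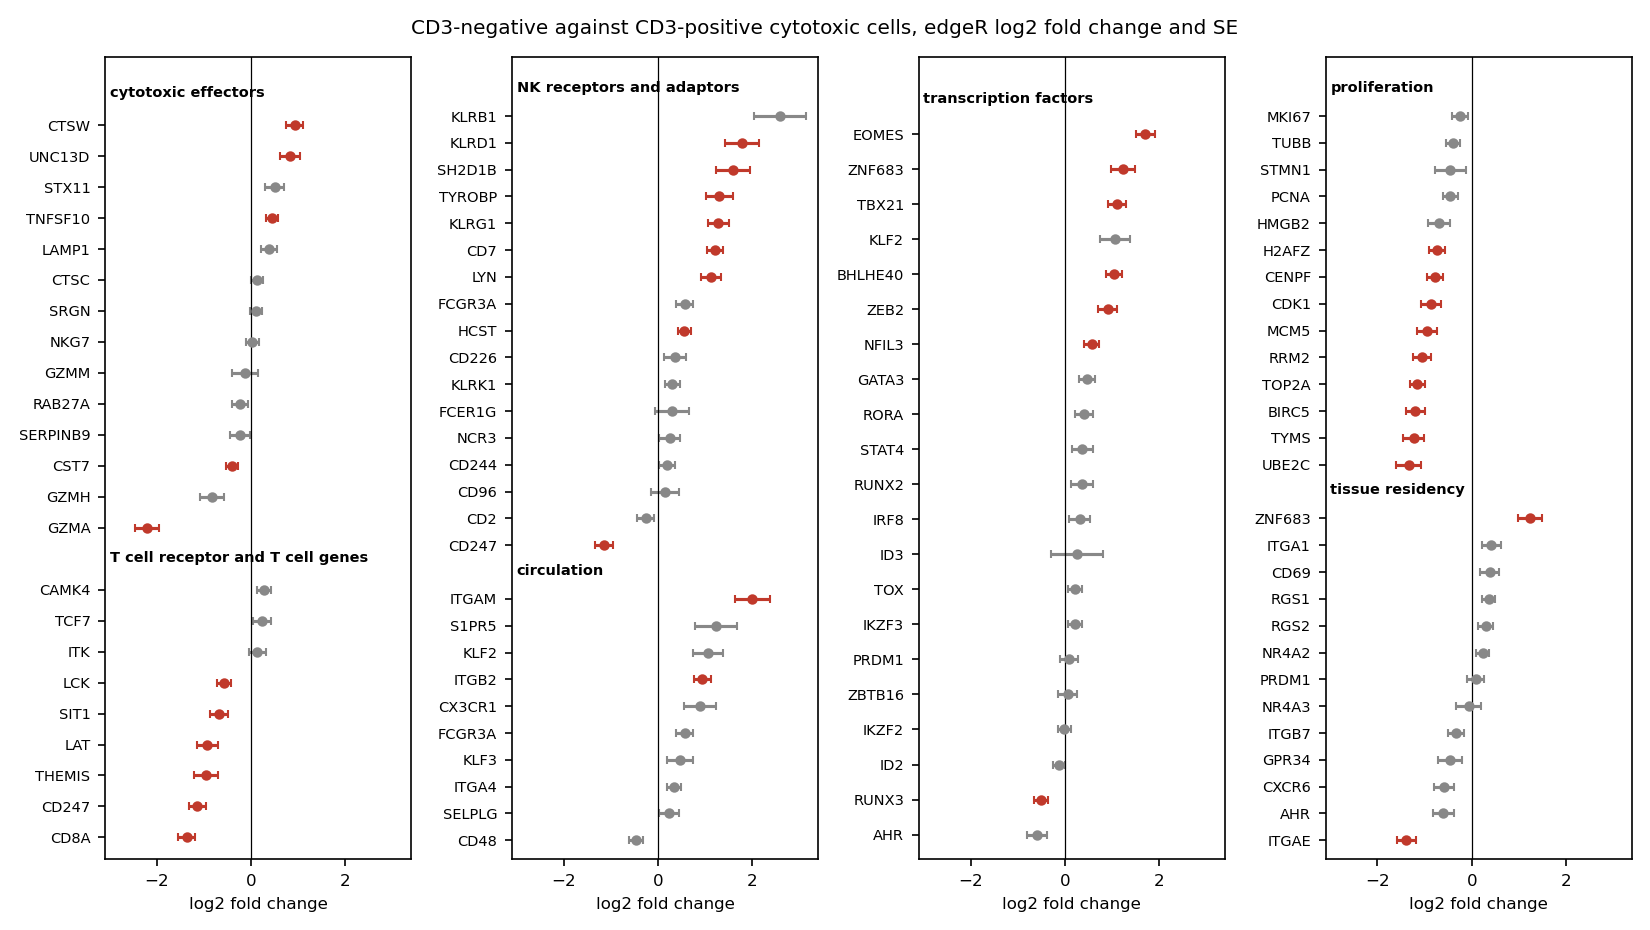
Log2 fold change (x axis) of the tested genes of 7 lists (y axis) in CD3-negative against CD3-positive cytotoxic cells over 5 libraries, with bars of 1 SE; red points have an edgeR adjusted p under 0.05. EOMES at 1.71 and TYROBP at 1.30 lie right of 0, and GZMA at -2.20 and CD8A at -1.37 left of it.

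The second comparison was with other CD3-negative lymphocytes, the type 17 cells (at least 2 UMIs of IL17A, IL17F and IL22, at most 3 of the cytotoxic genes). This gate held 53, 93, 49 and 67 cells at d1, d7, d14 and d21 and only 11 at d0, which was left out. Of 4032 genes tested in the same way, 240 were higher in the members (5.95%) and 306 lower (7.59%). It shares the members' sums with the first comparison, and the values of each are given on their own.

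The largest differences were in genes that 1 side nearly lacked. CD7 stood at 3.85, 5.90, 2.30 and 1.87 UMIs per 10000 in members from d1 to d21, and the type 17 cells held 3 UMIs of it in all (ratio of levels 107, exact 95% counting interval 36.3 to 518). EOMES had 256 UMIs in members and 1 in type 17 cells (ratio 129, 23.0 to 5126), SEMA6D 268 and 1 (ratio 135, 24.1 to 5366), ITGAM 177 and 1 (ratio 89.4, 15.8 to 3550) and GZMH 358 and 3 (ratio 60.3, 20.5 to 294). The type 17 gate allows at most 3 UMIs of the cytotoxic genes, GZMB among them, and reads may be split between GZMB and GZMH. The ratio of GZMH may therefore follow in part from the gates, which was not tested. KLRG1 and IL12RB2, a chain of the interleukin 12 receptor, had 2 UMIs each in the type 17 cells against 136 and 106. ADGRG1 (GPR56), an adhesion receptor of cytotoxic lymphocytes, stood at 2.75, 6.54, 1.61 and 2.11 against 0.0392, 0.149, 0.0823 and 0.0728 (log2 fold change 5.03 ± 0.29, adjusted p = 9.25e-08 by edgeR). S100A1 (5.60 ± 0.35) and ZNF683 (4.38 ± 0.47) completed the 10 largest. All were higher in 4 of 4 libraries.

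In the other direction TAC3, the precursor of a tachykinin, was highest in the type 17 cells: 26.5, 30.8, 25 and 5.64 from d1 to d21 against 0, 0.0278, 0.168 and 0.0267 in members (-7.93 ± 0.43, adjusted p = 0.000121 by edgeR). IL7R, the interleukin 7 receptor chain, stood at 9.22, 9.22, 9.71 and 5.28 against 0.440, 0.223, 0.343 and 0.107 (-5.12 ± 0.23). The groups did not overlap for either gene. CD109, CXCL8, CXCL2, GLT8D2, IL23R, ESPN and FURIN were also among the 10 largest falls, between -5.47 and -4.19. CXCL2 lost its call without d7 (-4.58) or d21 (-5.19), and IL23R without d14 (-4.00). Of 59 further called genes of the lists, 12, 13, 17 and 14 lost theirs without d1, d7, d14 and d21.

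Of 11 tested ILC3 and type 17 genes, 8 were lower in members and 1 (NRP1) was higher, with a median of -2.51 against -0.01 over all genes. The 8 included KIT (-2.51 ± 0.32), LTB (-3.40 ± 0.36), AHR (-2.24 ± 0.24) and NCR2 (-2.31 ± 0.26). NCR2 (NKp44) was thus below the type 17 cells, while against the CD3-positive cells it was higher by 1.27 ± 0.21. Of 15 NK receptors and adaptors, 6 were higher, such as KLRK1 (3.98 ± 0.61), FCGR3A (CD16, 1.74 ± 0.21) and CD226 (1.77 ± 0.33), and HCST was lower (-0.71 ± 0.18), with a median of 0.94. TYROBP and FCER1G did not pass. Of 9 tested T cell genes, CD247 and LCK were higher in the members and ICOS, THEMIS and TCF7 were lower (median -0.11). CD247 was not called without d14 (0.91) or d21 (0.86), and THEMIS not without d7 (-1.72) or d14 (-1.16). Type 17 cells may also include T cells whose CD3 was not sampled, and the part of such cells was not tested. Of 6 tested myeloid markers S100A9 was higher in the members (median 1.13), and of 6 stromal and endothelial markers ACTA2 and PLVAP were, and their part in these differences was not tested. Of 22 transcription factors, TBX21 (4.01 ± 0.37), EOMES, ZEB2, ZNF683 and IKZF3 were higher, and 6 were lower, among them ID2 (-2.02 ± 0.12), AHR, IKZF2, RUNX3 and BHLHE40. KLRK1 was not called without d7 (3.76) or d14 (3.97), NRP1 not without d14 (2.89), HCST not without d1 (-0.57) or d21 (-0.69), and IKZF2, RUNX3 and BHLHE40 each not without 3 of the 4 libraries in turn. Of 13 cell cycle genes 6 were higher, such as MKI67 (2.50 ± 0.44), and none lower, and of 21 stress genes 7 were lower, such as NFKBIA (-2.03 ± 0.26), and none higher.

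**Figure D3:**
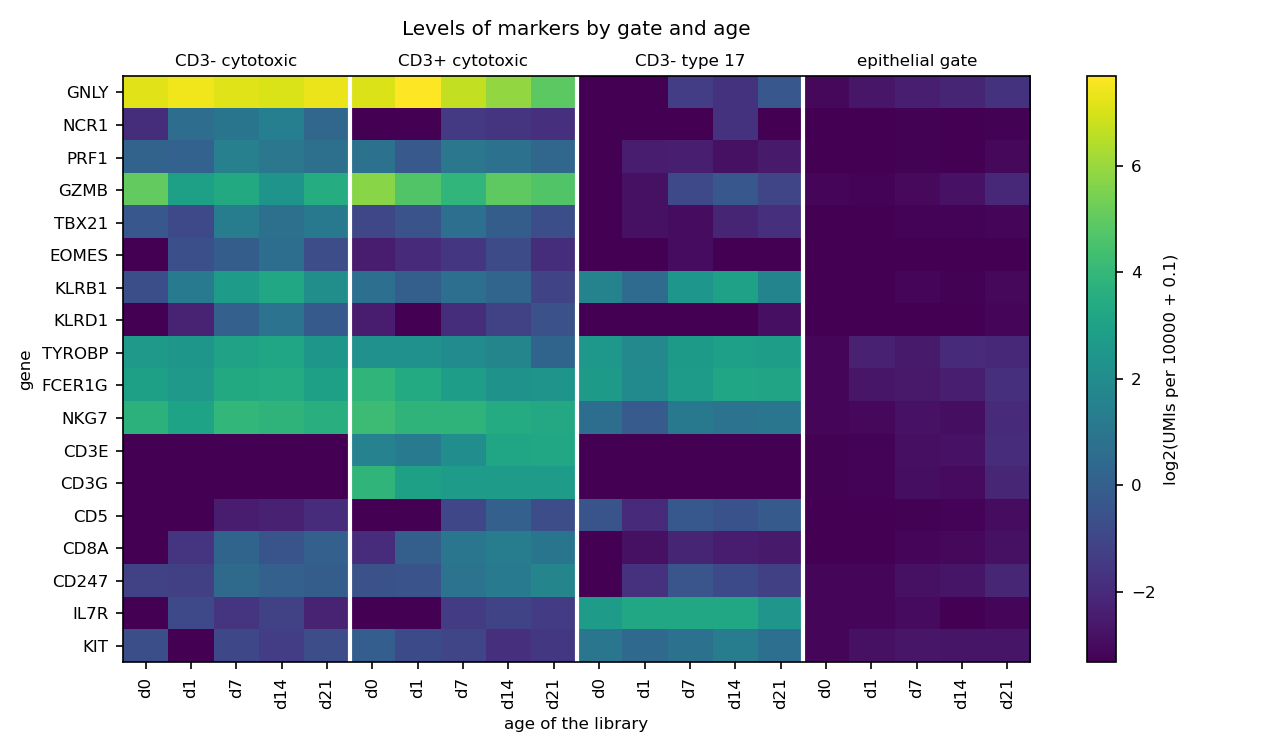
Levels of 18 marker genes (rows) as log2 of UMIs per 10000 plus 0.1, by age of the library (columns) in 4 gates: CD3-negative cytotoxic, CD3-positive cytotoxic, CD3-negative type 17 and epithelial. The first 4 rows and the CD3 rows were used by the gates; EOMES and KLRD1 are at the bottom of the scale in members at d0, and IL7R is highest in the type 17 columns.

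The members themselves were heterogeneous. They were split by the summed UMIs of 14 residency genes against 15 circulation genes. A few abundant genes carried most of either sum: at d14 RGS1, RGS2, ZNF683 and NR4A2 gave 38.4%, 15.7%, 9.27% and 8.74% of the residency UMIs, and FCGR3A (CD16), KLF2 and ITGB2 44.7%, 16.2% and 11.8% of the circulation UMIs. ITGAE (1.67%), CD69 (5.01%) and CX3CR1 (2.54%) gave little. More residency than circulation UMIs were found in 18 of 35 members at d0, 16 of 25 at d1, 40 of 137 at d7, 112 of 324 at d14 and 73 of 125 at d21. The circulation side held 13 cells at d0, 7 at d1, 84 at d7, 189 at d14 and 40 at d21. At d7 it was the larger side in each version below, and at the other ages the larger side depended on those abundant genes. Without RGS1 and NR4A2, the residency and circulation sides held 8 and 22 cells at d0 and 4 and 18 at d1. They held 26 and 94 at d7, 67 and 240 at d14 and 50 and 59 at d21. Without FCGR3A they held 23 and 6 at d0 and 17 and 7 at d1. At d7, d14 and d21 they then held 50 and 69, 159 and 134, and 89 and 26. RGS1 and NR4A2 made up 37.3% and 17.4% of the residency UMIs at d21, an age at which NR4A2 was also higher in the CD3-positive cells, as given below. The split is a cut through a range, not a cell type: 33, 54 and 34 members at d7, d14 and d21 lay within 1 UMI of it. Cells of the residency side had a median of 2 circulation UMIs at d7, and those of the circulation side 1.5 residency UMIs.

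Over d7, d14 and d21, 3428 genes of neither list were tested between the sides, and 29 were higher on the residency side (0.846%) and 25 lower (0.729%). The residency side carried TNFRSF18 (GITR), a costimulatory receptor, at 2.55, 2.09 and 1.94 UMIs per 10000 from d7 to d21, against 0.497, 0.287 and 0.264 on the circulation side (2.74 ± 0.27, adjusted p = 6.98e-07 by edgeR). TMIGD2 (CD28H) stood at 0.658, 0.727 and 0.949 against 0, 0.0624 and 0.0881 (3.75 ± 0.51). IL2RA (2.57 ± 0.47), KIT (2.01 ± 0.43), ID3 (2.00 ± 0.32), DUSP5 (1.72), DHRS3 (1.56), INPP4B (1.36), RBPJ, the nuclear effector of Notch (1.32), and HBEGF (1.30) followed. Without members that held other-lineage UMIs, which left d14 and d21, ID3 turned to -0.24, and 63 of its 252 UMIs at d14 lay in 1 cell. ID2 (0.81 ± 0.15) and GATA3 (1.10 ± 0.29) were also higher on the residency side.

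The circulation side carried PLAC8 at 6.60, 5.03 and 8.01 against 1.40, 1.97 and 2.02 on the residency side (-1.75 ± 0.20, adjusted p = 4.62e-06 by edgeR), and the sides did not overlap. EMP1 (-1.60), FKBP5 (-1.40), S100A1 (-1.34), ARHGEF18 (-1.21), S100A6 (-1.19), RASA3 (-1.16), CD7 (-1.13), S100A4 (-1.13) and GZMH (-1.06) were likewise lower on the residency side. TBX21 was also lower there (-0.94 ± 0.23), as was IKZF3 (-0.81 ± 0.18). S100A4, a calcium-binding protein, stood at 18.5, 7.62 and 10.8 on the circulation side and at 5.68, 4.94 and 4.54 on the residency side. Of 21 stress genes 4 were higher on the residency side, FOSB (1.18 ± 0.21), JUNB, JUND and BTG2, with a median of 0.53 against 0.02 over all genes.

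These calls were few and fragile. DESeq2 kept 10 of the 54, TMIGD2, TNFRSF18, PLAC8, S100A1 and S100A4 among the 20 named genes. Without d21, 8 genes were higher and 7 lower, without d14 19 and 8, and without d7 58 and 74. TMIGD2, TNFRSF18 and PLAC8 were called under each of these. Of the 54 calls, 45 remained without d7, 18 without d14 and 11 without d21. TBX21 was not called without d14 (-0.78) or d21 (-1.24), nor was ID2 (0.84 and 0.97), IKZF3 (-0.75 and -0.85) or GATA3 without any of the 3 libraries. Of the 20 named genes, EMP1 and ARHGEF18 were not called without any of the 3 libraries in turn. IL2RA, KIT, INPP4B, FKBP5, RASA3 and GZMH were not called without d14 or d21, S100A1 not without d14 (-1.15), and DUSP5, DHRS3, RBPJ, HBEGF, CD7, S100A6 and S100A4 not without d21.

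Markers of other lineages were also compared between the sides, and few were called. Of 6 tested myeloid markers none was called, with a median of -1.08, that is, toward the circulation side, and the 1 tested B and plasma cell marker was at -2.97 and not called. Of 6 tested stromal and endothelial markers CALD1 was higher on the residency side, with a median of 0.87. At least 2 other-lineage UMIs were in 21 of 40 residency-side and 27 of 84 circulation-side members at d7, 35 of 112 and 59 of 189 at d14, and 19 of 73 and 12 of 40 at d21. The part of such RNA in the differences of S100A4, S100A6, EMP1, PLAC8 and the other named genes was not tested.

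**Figure D4:**
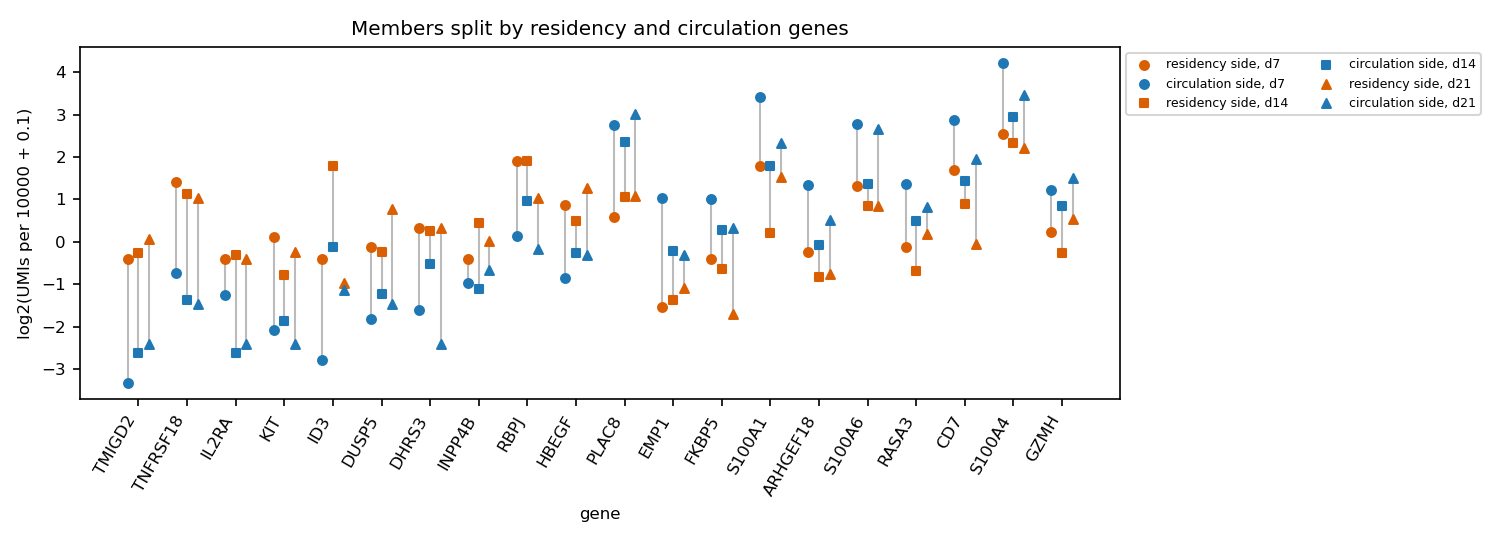
Levels of the 20 named genes as log2 of UMIs per 10000 plus 0.1 in members with more residency than circulation UMIs (orange) and in those with fewer (blue) at d7 (circle), d14 (square) and d21 (triangle), with a line joining the sides of a library. PLAC8 and S100A4 lie higher on the circulation side in all 3 libraries and TNFRSF18 higher on the residency side.

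Levels were then followed through d7, d14 and d21, the ages with at least 50 members. Here a gene counts as past 2-fold when the log2 ratio of its levels, with 0.1 added to each, is at least 1 in size, among genes with at least 20 UMIs in the pair. From d7 to d14, 364 of 7589 genes were higher (4.8%) and 173 lower (2.28%), and from d14 to d21, 126 of 7562 were higher (1.67%) and 350 lower (4.63%). For d21 against d7, 169 of 4858 were higher (3.48%) and 192 lower (3.95%). None of these has a test.

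The genes with the largest ratios were mostly those of other cells. The 10 highest at d14 over d7 were JCHAIN, ADAMDEC1, C1QA, C1QB, C1QC, COL3A1, COL4A1, COL1A1, ACTA2 and CALD1, and 10 of 12 stromal and 7 of 13 myeloid markers were past 2-fold upward. JCHAIN, the joining chain of plasma cell antibodies, had 1127 UMIs in members at d14, of which 977 lay in 1 cell. C1QA, a complement gene of macrophages, went from 0.111 to 4.65 and 0 UMIs per 10000 in members from d7 to d21, and from 0.300 to 6.11 and 0.185 in all cells of the libraries. Without members that held at least 2 other-lineage UMIs its level at d14 was 0.294. HBB stood at 32.5, 0 and 4.49 in members and at 45.7, 0.303 and 2.22 in all cells. FABP1, KRT8, KRT19, LGALS3 and DISP2, all lower at d14 than d7, were also lower in all cells.

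Several of the remaining named genes came from single cells. All 33 UMIs of CCL1 at d7 lay in 1 member. At d21, 50 of 57 UMIs of AREG, 33 of 37 of FAM20A and 22 of 29 of IL10 each lay in 1 member, and 26 of 52 of CITED4. In the d21 against d7 comparison, 8 of the 10 named genes that were lower had over 50% of their d7 UMIs in 1 cell, among them SLA-DRB1, SLA-DQB1, CST3, AIF1 and IL18BP. AREG and IL10 are therefore given as values of a few cells: 6 and 4 members at d21.

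Other genes were spread over many members. FOSB, an immediate early factor, stood at 1.5 at d7 (exact Poisson 95% interval 1.13 to 1.96), 1.45 at d14 (1.26 to 1.67) and 5.46 at d21 (4.73 to 6.26), the last carried by 62 members. NR4A2, a nuclear receptor induced by stimulation, gave 1.61, 1.45 and 5.30, and ZFAND2A, a heat shock-induced zinc finger gene, 0.390, 1.22 and 4.39. In the CD3-positive cells FOSB also differed, from 1.05 at d14 to 3.03 at d21 (log2 ratio 1.45, against 1.84 in members), and so did NR4A2 (1.53 against 1.80) and ZFAND2A (1.66 against 1.77). Of 21 stress genes, 8 were past 2-fold upward at d21 over d7 and none downward (median 0.71 against -0.12 over all genes tested). HSPH1 stood at 2.62, 5.99 and 13.6, and HSPA6 at 4.59, 21.4 and 15.9. Library, handling and age cannot be told apart in these values.

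Of 13 circulation genes tested, CX3CR1 and ITGAM were past 2-fold downward at d14 over d7 and none upward, and of 12 none was past it at d21 over d14. ADGRG1, CD7 and KLRG1, which are not on that list, were also lower after d7. ADGRG1 went from 6.54 (5.73 to 7.43) at d7 to 1.61 (1.41 to 1.84) at d14 and 2.11 (1.67 to 2.63) at d21, and in the CD3-positive cells from 3.92 to 1.41 and 1.62. CD7 went from 5.90 to 2.30 and 1.87, KLRG1 from 1.17 to 0.503 and 0.401, ITGAM from 1.70 to 0.605 and 0.669, and CX3CR1, the fractalkine receptor, from 1.42 to 0.590 and 0.562. The last 4 were also lower at d21 in the CD3-positive cells, with log2 ratios of -2.58, -2.13, -2.19 and -2.72 at d21 over d7. S1PR1, the exit receptor for lymph and blood, went from 0.640 (0.406 to 0.961) to 0.430 and 0.214 (0.0924 to 0.422), with a log2 ratio of -1.24 in members and -0.09 in CD3-positive cells at d21 over d7. Of 11 circulation genes tested, 3 were past 2-fold downward at d21 over d7 and none upward (median -0.47).

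Several residency genes were higher after d7. CD69, an early activation and retention receptor, stood at 0.223 (0.0961 to 0.439), 0.831 (0.685 to 0.998) and 1.12 (0.810 to 1.52), with 5, 67 and 25 members carrying it. RGS1, a regulator of chemokine receptor signalling, gave 4.90, 6.38 and 11.3, and RGS2 1.53, 2.61 and 4.95. ITGAE was at 0.390, 0.277 and 0.802, and ITGA1 at 1.14, 0.605 and 0.481. Of 13 residency genes, CD69, RGS1, RGS2, NR4A2 and NR4A3 were past 2-fold upward at d21 over d7 and ITGA1 downward (median 0.82). CD69 also stood higher at d21 than d7 in the CD3-positive cells (log2 ratio 1.07, against 1.92). NR4A2 was higher there at d21 than at d14, as given above. Values of RGS1, RGS2 and NR4A3 in the CD3-positive cells are not given, so these rises are not shown to be particular to the members.

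KLRB1, KLRD1 and EOMES were highest at d14. KLRB1 stood at 6.54 (5.73 to 7.43), 9.22 (8.72 to 9.74) and 4.2 (3.57 to 4.91), KLRD1 at 0.946, 1.71 (1.49 to 1.94) and 0.776 (0.519 to 1.11), and EOMES at 0.863, 1.47 (1.27 to 1.68) and 0.508 (0.306 to 0.794). The intervals of d14 and d21 did not overlap for any of the 3. In the CD3-positive cells EOMES had the same order (0.231, 0.465 and 0.171), whereas KLRD1 was highest at d21 (0.171, 0.343 and 0.568). GZMA in members went from 0.168 (0.106 to 0.252) at d14 to 0.669 (0.433 to 0.987) at d21, and LTB, a lymphotoxin chain, from 4.87 at d7 to 2.44 and 1.12. LTB also went down in the CD3-positive cells, from 3.85 to 2.99 and 1.23.

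Interferon-stimulated genes were lower at d14 than at d7 in members: MX1 stood at 4.95 (4.25 to 5.74), 1.85 (1.63 to 2.09) and 3.02 (2.49 to 3.63), RSAD2 at 1.73, 0.641 and 0.856, and IFIT3 at 1.28, 0.423 and 0.374. Of 18 such genes, MX1, MX2, IFIT3, OAS2 and RSAD2 were past 2-fold downward and none upward (median -0.60 against -0.08). In the CD3-positive cells the log2 ratios of the same genes at d14 over d7 lay between -0.14 and 0.21. The difference between the groups was not tested, since each age is 1 library. Levels of these interferon-stimulated genes without the richest cell, or without members that held UMIs of other lineages, are not given. RRM2, a subunit of ribonucleotide reductase, stood at 0.751, 0.627 and 1.95, and UBE2C at 0.724, 0.685 and 1.71. Of 15 genes of MHC class II and antigen presentation, 7 were past 2-fold downward at d21 over d14, among them CD74, the invariant chain, at 18.6, 31.3 and 9.55. At d7, 481 of its 668 UMIs lay in 1 member. Without members that held UMIs of other lineages CD74 stood at 4.50, 9.18 and 6.84, and SLA-DRA at 1.46, 2.47 and 2.29. The summed myeloid markers stood at 10.9, 23.6 and 5.62 in the same libraries, and SLA-DRB1 in all cells stood at 5.71, 14.0 and 2.52. Their part in the difference was not tested.

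**Figure D5:**
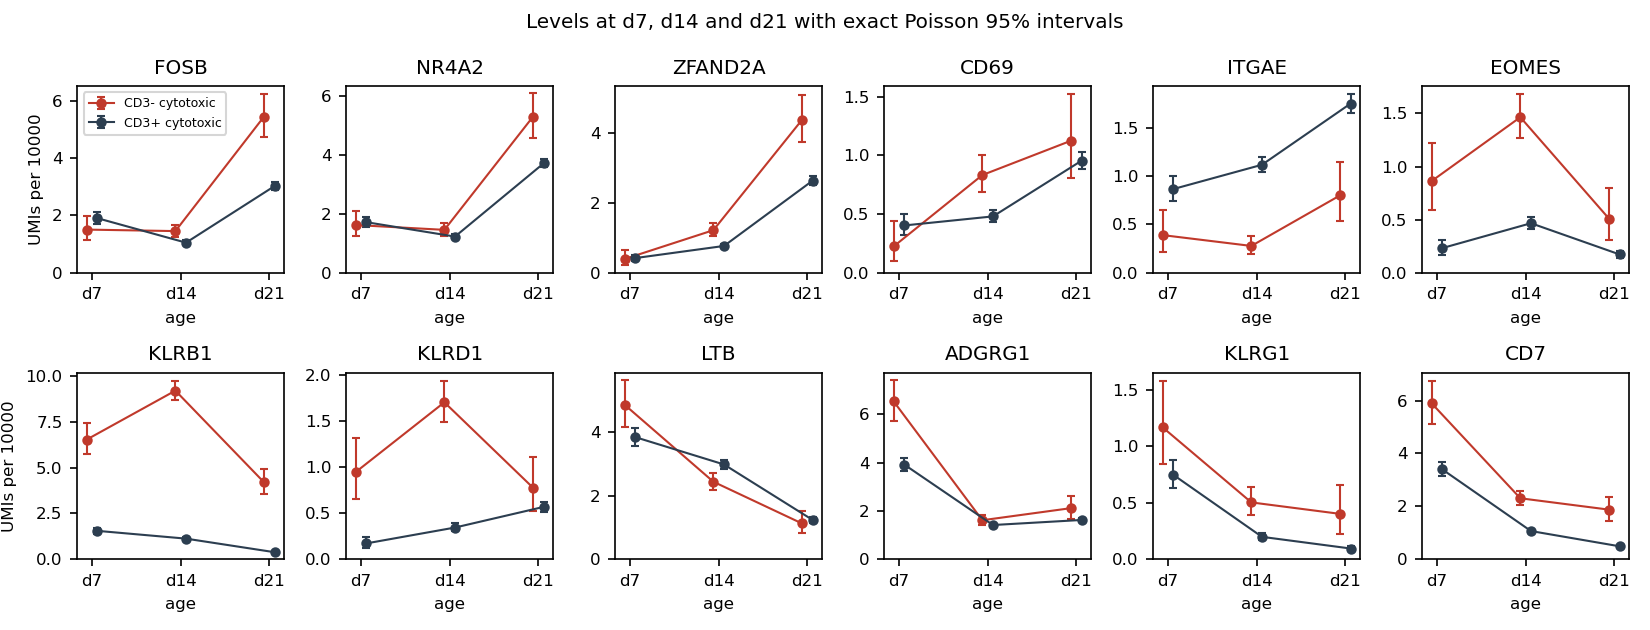
Levels (UMIs per 10000) of 12 genes at d7, d14 and d21 in CD3-negative (red) and CD3-positive (dark) cytotoxic cells, each from 1 library, with exact Poisson 95% intervals that cover counting error only. FOSB, NR4A2 and ZFAND2A are highest at d21 in both, and KLRB1, KLRD1 and EOMES peak at d14 in the CD3-negative cells.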

How the data were processed

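The authors counted UMIs with Cell Ranger 3.1.0 on the pig genome (susScr11) and deposited 1 matrix of counts per age, without normalization. The cell numbers in the matrices exceed the forced number the methods state. Cells with at least 200 of 20648 genes were kept, and doublets were not removed. Members and lists were chosen with earlier results of these data known. Counts were summed per library and gate and tested with edgeR 4.0.16 (TMM, filterByExpr, robust quasi-likelihood fit, library as block, adjusted p under 0.05), for libraries with at least 20 cells in each gate. The 11 gate genes were left out. Named genes are those of the lists, and the 10 of largest fold change in each direction among called genes with 1 sign in every library and a level of at least 0.5 per 10000 in the higher group (for ages, among genes past 2-fold whose Poisson intervals did not overlap), LOC symbols passed over. The fit was tested on simulated counts. Intervals are exact (SciPy 1.17.1), and the limit of a count of 0 is 3 counts. Alternatives were DESeq2 1.42.0, no low-count filter, each library left out, a pseudocount of 0.5, thinning to 1000 UMIs, and stricter cell filters. Cells with at least 2000 UMIs, levels without the richest cell, and splits without some genes were added after the data were seen. Of 349 list genes, 17 were not analysed here. Some genes that these rules would name are not reported here.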

Additional observations from a re-analysis of the deposited data

How the results depend on the processing

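Limits of the design come first. Each age is 1 library of pooled piglets, members are few, and their name rests on CD3 not being sampled, which depends on depth. Summed counts carry RNA of other lineages, and no doublet caller was run. The library was a block in every test, so the gates were compared within each library. The alternatives with at least 2000 UMIs per cell, without the richest cell, and without some genes of the split were chosen after seeing the data.

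Against CD3-positive cells (327 higher, 194 lower), the counts were 202 and 89 with DESeq2, 26 and 29 with cells thinned to 1000 UMIs (d1 not kept), and between 67 and 521 and between 22 and 516 with 1 library left out. Without cells holding other-lineage UMIs they were 438 and 403, but d1 then had too few cells, and leaving out d1 alone gave 521 and 516. Lower genes numbered 531 without a filter and 323 in cells of at least 2000 UMIs, where d7, d14 and d21 were kept. Of the 521 called genes, DESeq2 still called 283, and all 521 had the same sign. With thinning 304 could be tested, of which 34 were called and 262 had the same sign. Thinning turned TOP2A (0.47), TPX2 (0.27), RRM2 (0.25), CENPF (0.43), H2AFZ (0.20), TPI1 (0.16), TNFSF10 (-0.20) and NFIL3 (-0.033). Against type 17 cells (240 higher, 306 lower), they were 368 and 467 without a filter, 143 and 187 with DESeq2, 39 and 58 thinned, 214 and 202 without other-lineage cells and d1 (254 and 266 without d1 alone), and between 145 and 254 and between 211 and 266 with 1 library left out.

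Between the residency and circulation sides (29 higher, 25 lower), the counts were 71 and 61 without a filter, 6 and 4 with DESeq2, 15 and 10 in cells of at least 2000 UMIs, and between 8 and 58 and between 7 and 74 with 1 library left out. There were 65 and 31 without other-lineage cells, where d7 had too few (58 and 74 without d7 alone), and 16 lower both with cells under 20% mitochondrial counts and thinned. ID3 (-0.24) and IFI6 (0.040) turned without other-lineage cells, and IFI6 (0.24) and JUNB (-0.032) with thinning.

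The share of cells at d0 was 0.488% under 20% mitochondrial counts and 0.104% in cells of at least 2000 UMIs, where d7 gave 1.11%. Without other-lineage cells it was 0.171%, 0.0919%, 0.827%, 1.38% and 0.533% from d0 to d21. With at least 6 cytotoxic UMIs it was 1.08%, 1.72% and 0.562% at d7, d14 and d21. Thinned it was 1.72% at d7 (1.45 to 2.03), 1.94% at d14 (1.72 to 2.18) and 1.05% at d21, so that the intervals of d7 and d14 overlapped. Those of d7 (0.854 to 1.42) and d21 (0.533 to 0.869) overlapped in cells of at least 2000 UMIs. The CD3-negative share of cytotoxic cells was 36.6%, 59.1%, 34.6%, 25.1% and 12.1% without other-lineage cells, 56.3%, 74.3%, 72.7%, 59.4% and 45.1% thinned, and 24.4%, 18.2%, 20.8% and 6.85% at d0, d7, d14 and d21 in cells of at least 2000 UMIs.

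Genes past 2-fold, higher and lower, numbered 66 and 23 for d14 over d7, 21 and 48 for d21 over d14, and 51 and 27 for d21 over d7 with a pseudocount of 0.5. With at least 100 UMIs they numbered 80 and 44, 35 and 83, and 38 and 24. Without other-lineage cells they numbered 223 and 218, 140 and 125, and 154 and 156. Without other-lineage cells the log2 ratio turned for CCL1 (0.77) at d14 over d7, and for CCL1 (0.50), CST3 (2.10), AIF1 (0.57) and SLA-DQB1 (0.32) at d21 over d7. Without the richest cell it turned for CCL1 (0.20) at d14 over d7, and for CST3 (0.90) and SLA-DQB1 (0.32) at d21 over d7. In the 3 tests and the age counts the cause of these changes was not tested.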
